A study of Mus musculus with 4 samples.

Results

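Macrophage markers and pattern receptors were examined in spinal cord with and without autoimmune inflammation. The 8 genes were Lyz2, Cd68, Fcgr3, Cd14, Clec7a, Tlr7, Lilrb4a and Acod1, looked up by symbol among array spots assigned to 1 gene. They were found on 10 spots, of 18511 spots with 1 gene (10225 genes) and 28704 spots in all. Fcgr3 and Tlr7 had 2 spots each and the other genes 1 each. No spot assigned to several genes named any of them. The 8 genes had been chosen with their ratios and the presence of their values on these arrays known, so the values below are a description and carry no test.

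The samples were pools of spinal cords of adult female SJL/J mice, 2 mice to a pool, either control mice or mice with AT-EAE. The abbreviation stands for experimental autoimmune encephalomyelitis by adoptive transfer, in which T cells reactive to myelin are given to recipients and cause inflammation of the central nervous system. Each of 4 two-channel cDNA arrays carried 2 pools of the same group, with pools 1 and 2 on array 1 and pools 3 and 4 on array 2. There were thus 2 control arrays and 2 AT-EAE arrays, and 4 pools in each group. The sources used here do not give disease stage, clinical score or what the control mice received.

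Macrophages and microglia are the phagocytes of the inflamed cord. Microglia reside there, and blood monocytes enter during autoimmune inflammation and become macrophages. Such cells carry pattern receptors, which bind molecular features of microbes or of damaged tissue, and Fc receptors, which bind antibody, and both kinds of receptor can switch on inflammatory genes. In whole cord, fewer cells of a type and less RNA per cell cannot be told apart.

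A deposited value was taken as the log2 ratio of the 2 channels of an array, that is, of 2 pools of 1 group. It carries no level and no comparison of AT-EAE with control. The sources used here do not name the numerator channel or the base of the logarithm, so a sign only sets a gene against other genes of the same array, and folds assume base 2. Many spots had no value on an array. Nor do those sources give the reason for an absent value, and an absent value is not a level of 0.

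Sequence upstream of the genes is shown because PU.1, a transcription factor of the macrophage lineage, binds purine-rich sites with the core GAGGAA, and such sites lie near the start of many macrophage genes. The 250 bases before the annotated start follow for the 5 genes used from the RefSeq promoter table (GRCm38.p6), 5′ to 3′ along the gene, with matches to GAGGAA or its reverse complement TTCCTC in capitals. For Fcgr3 and Clec7a, which had 2 windows each in that table, the one that reaches farthest upstream is given.
Lyz2 (chr10:117282273-117282522, minus strand): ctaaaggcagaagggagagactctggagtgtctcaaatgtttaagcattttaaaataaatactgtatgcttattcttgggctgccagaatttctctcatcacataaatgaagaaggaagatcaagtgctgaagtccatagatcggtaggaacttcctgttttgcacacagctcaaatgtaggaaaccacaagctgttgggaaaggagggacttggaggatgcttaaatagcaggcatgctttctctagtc
Cd68 (chr11:69666171-69666420, minus strand): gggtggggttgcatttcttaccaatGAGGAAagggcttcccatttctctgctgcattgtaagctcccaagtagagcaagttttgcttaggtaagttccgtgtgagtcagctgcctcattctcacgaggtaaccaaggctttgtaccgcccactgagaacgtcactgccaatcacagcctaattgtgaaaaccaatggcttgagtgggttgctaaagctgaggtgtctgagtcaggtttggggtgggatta
Fcgr3 (chr1:171059404-171059653, minus strand): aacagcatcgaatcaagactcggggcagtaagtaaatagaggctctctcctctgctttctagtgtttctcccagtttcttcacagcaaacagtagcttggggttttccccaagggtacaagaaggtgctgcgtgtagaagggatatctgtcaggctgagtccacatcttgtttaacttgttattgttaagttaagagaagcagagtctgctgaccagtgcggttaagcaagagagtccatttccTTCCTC
Clec7a (chr6:129472786-129473035, minus strand): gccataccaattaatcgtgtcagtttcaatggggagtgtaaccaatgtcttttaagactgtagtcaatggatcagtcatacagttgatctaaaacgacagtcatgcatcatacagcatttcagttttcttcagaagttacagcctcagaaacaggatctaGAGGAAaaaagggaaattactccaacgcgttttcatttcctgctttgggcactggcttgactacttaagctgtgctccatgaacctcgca
Acod1 (chr14:103046762-103047011, plus strand): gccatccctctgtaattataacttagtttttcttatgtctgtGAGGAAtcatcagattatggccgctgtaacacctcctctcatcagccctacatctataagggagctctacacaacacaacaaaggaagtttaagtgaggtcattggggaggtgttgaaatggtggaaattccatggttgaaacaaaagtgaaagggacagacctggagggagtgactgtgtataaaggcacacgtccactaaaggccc

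The core was in 4 of these 5 windows (Cd68, Fcgr3, Clec7a and Acod1), and in 23.3% of all 32851 windows of the same length. The Clec7a match began 90 bases before the start, the Acod1 match 208, the Cd68 match 225 and the Fcgr3 match 6. Both strands were searched, and no other motif was. No window of Cd14, Tlr7 or Lilrb4a was searched. A match describes letters and not binding, and these genes were chosen by their values.

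Values of the 8 genes were present on more spots in AT-EAE than in control cord. Of the 10 spots, 3 and 4 had a value on the first and the second control array, against 8 and 7 on the first and the second AT-EAE array. The mean share was 35% ± 7.07 (SD, n = 2 arrays) for control cord. For AT-EAE cord it was 75% ± 7.07 (SD, n = 2 arrays). Both AT-EAE arrays lay above both control arrays. The 8 genes were chosen with the presence of their values on these arrays known, so nothing is read from this gap. Over all spots with 1 gene the control arrays had shares of 80.9% and 72.9% and the AT-EAE arrays 61.7% and 42.1%, so the arrays as a whole ran the other way. Among the 100 spots with the numbers nearest to each of the 10 spots, 55% to 78% had a value on the control arrays and 30% to 62% on the AT-EAE arrays. Whether spot numbers follow positions on the slide is not stated in the sources used here. With 2 arrays a group, the smallest p an exact permutation test could reach is 0.333.

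**Figure D1:**
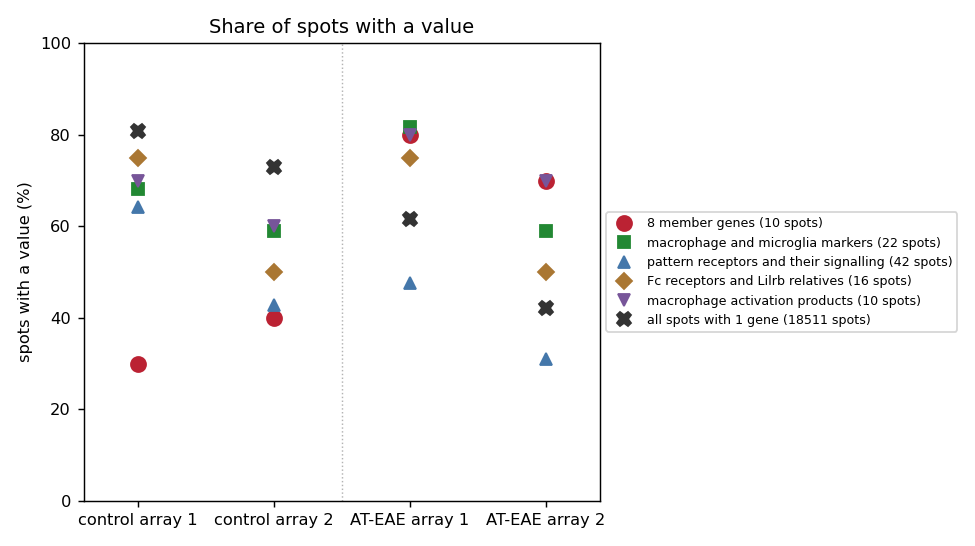
Percent of spots with a value (vertical axis) on each of the 4 arrays (horizontal axis), for the 10 spots of the 8 genes, for 4 fixed lists of related genes and for all 18511 spots with 1 gene. Each point is 1 array. The 8 genes sit at 30% and 40% on the control arrays and at 80% and 70% on the AT-EAE arrays, while all spots sit at 80.9%, 72.9%, 61.7% and 42.1%.

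None of the 3 pattern receptors Cd14, Clec7a and Tlr7 had a value in control cord. Of all genes, 86.2% and 80.1% had one on the first and the second control array. Of the 26 related genes for pattern receptors and their signalling listed below, 18 and 13 did. Cd14, Clec7a and Tlr7 were chosen with the presence of their values known, so nothing is read from their absence in control. Cd14, which presents bacterial lipopolysaccharide to Toll-like receptor 4, had a value on AT-EAE array 2 alone. Clec7a encodes dectin-1, a receptor for fungal beta-glucan that activated microglia also carry, and its spot had values on both AT-EAE arrays. Tlr7, an endosomal receptor for single-stranded RNA, had a value on both AT-EAE arrays as a gene but on different spots. Spot 10628 had a value on AT-EAE array 1 alone and spot 9128 on AT-EAE array 2 alone, so neither Tlr7 spot was measured in both pairs of pools.

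Lilrb4a, an inhibitory receptor of myeloid cells, and Acod1, the enzyme that makes itaconate in activated macrophages, followed the pattern of Clec7a. The single spots of Clec7a (27631), Lilrb4a (8677) and Acod1 (12797) each had values on both AT-EAE arrays and on neither control array. These were 3 of the 10 spots, while 42 of all 18511 spots with 1 gene did so (0.227%). Counting also spots with a value on at least 1 AT-EAE array and neither control array, there were 6 of 10, against 177 of all spots (0.956%). By gene, Clec7a, Tlr7, Lilrb4a and Acod1 had values on both AT-EAE arrays and neither control array, 4 of 8 genes, against 13 of 10225 (0.127%), so that these 4 are 4 of those 13. Their presence was part of what brought them into the list, and nothing is read from these counts.

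The markers Lyz2, Cd68 and Fcgr3 had values in both groups. Lyz2 encodes lysozyme M, a bacteria-degrading enzyme of macrophages, microglia and neutrophils. Its spot (22348) had a value on both control arrays and AT-EAE array 1, and none on AT-EAE array 2. Cd68, a glycoprotein of the lysosome membrane in phagocytes, had a value on control array 2 and AT-EAE array 1 alone (spot 21158). Fcgr3, an activating receptor for IgG, had a value for both of its spots (12765 and 20599) on all 4 arrays, a pattern shared by 39.9% of all spots with 1 gene. None of the 10 spots had values on both control arrays and neither AT-EAE array, which 12.8% of all spots had.

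**Figure D2:**
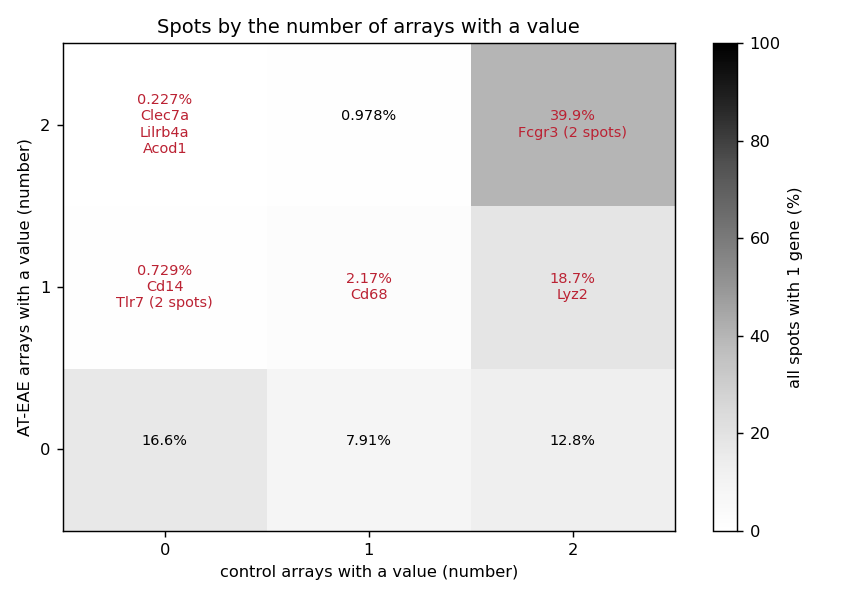
Spots by the number of control arrays (horizontal axis) and AT-EAE arrays (vertical axis) on which they had a value, with shading and printed percentages for all 18511 spots with 1 gene and the names of the 8 genes in red. Clec7a, Lilrb4a and Acod1 are in the cell at upper left, which holds 0.227% of all spots, and Fcgr3 is at upper right with 39.9%.

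The ratio between the pools of an array was largest for Lyz2. Its log2 ratio was -0.03 and 0.11 on the first and the second control array, but -1.01 on AT-EAE array 1, a 2.02-fold difference between AT-EAE pools 1 and 2. The control ratios were near 0, and the AT-EAE ratio lay apart from both. On AT-EAE array 1 it ranked 23 from the lowest of 7398 genes, and 0.365% of genes on that array had an absolute ratio of at least 1. A single spot carried these values, so it has no error of its own. The standard deviation between spots of the same gene on AT-EAE array 1 was 0.24.

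Cd68 was at -0.28 on control array 2 and at -0.76 on AT-EAE array 1, a 1.70-fold difference between the AT-EAE pools. On AT-EAE array 1 it ranked 56 from the lowest of 7398 genes, and on control array 2 14.0% of genes lay below it. With 1 spot and 1 array in each group, the 2 values cannot be set against a replicate.

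The control arrays gave Fcgr3 mean ratios of 0.23 and 0.02, and the AT-EAE arrays gave -0.55 and -0.06. Spots 12765 and 20599 were at -0.63 and -0.47 on AT-EAE array 1, where the gene ranked 163 from the lowest of 7398. The spots lay close together on control array 1, at 0.22 and 0.23, and on control array 2, at 0.07 and -0.03. On AT-EAE array 2 they went opposite ways, at -0.36 and 0.24. That gap of 0.60 compares with a median gap of 0.28 over the 647 genes with 2 spots measured there, of which 10% had a gap above 0.76. The Fcgr3 mean near 0 on AT-EAE array 2 therefore rests on spots that disagree.

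Among the pattern receptors, Clec7a was at -0.29 and -0.33 on the first and the second AT-EAE array. Of the 4 among the 8 genes with values on both AT-EAE arrays and neither control array, it alone had the same sign on both. Its single spot gave both values, and the standard deviation between spots of a gene was 0.24 and 0.36 on these arrays. Cd14 was at 0.59 on AT-EAE array 2, where 96.9% of genes lay below it. Spot 10628 of Tlr7 was at -0.14 on AT-EAE array 1, and its spot 9128 was at 0.44 on the other AT-EAE array. Because these are different spots, the Tlr7 values differ in clone as well as in pools.

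Lilrb4a was at -0.17 and 0.52 on the first and the second AT-EAE array. Acod1 was at -0.28 and 0.38. Each of these ratios came from the same spot on both arrays, and each changed sign between the arrays. The numerator channel is not named, so the signs do not say which pool of a pair had more of the transcript. Pool numbers are arbitrary, so signs are not matched between the arrays. On AT-EAE array 2 the gene-to-gene standard deviation was 0.36, against 0.23 on AT-EAE array 1. The AT-EAE array 2 ratios of Cd14, Lilrb4a, Tlr7 and Acod1 were 1.64, 1.46, 1.23 and 1.05 times that deviation.

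**Figure D3:**
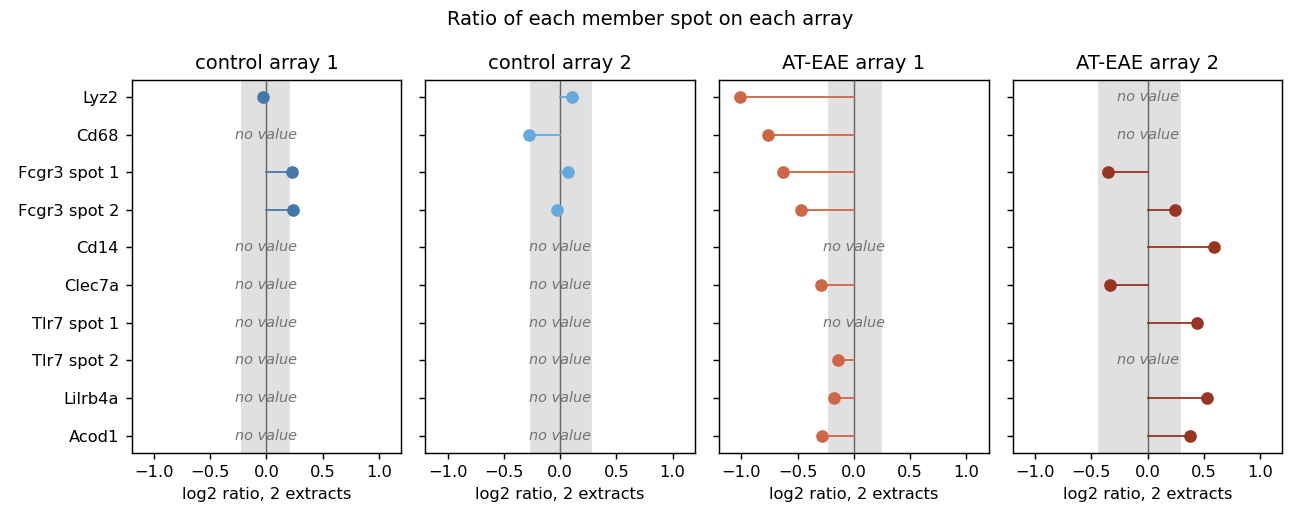
Log2 ratio (horizontal axis) of each of the 10 spots (vertical axis) on each of the 4 arrays, with "no value" where none was deposited. The gray band spans 1 standard deviation over genes on each side of the array median; spots 1 and 2 are 12765 and 20599 for Fcgr3, and 9128 and 10628 for Tlr7. On AT-EAE array 1 all 8 spots with a value lie below 0, from -1.01 to -0.14, while on AT-EAE array 2 5 lie above 0 and 2 below.

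Ratios of the genes were all below 0 on AT-EAE array 1 and mostly above 0 on AT-EAE array 2. The numerator channel is not named and pool numbers are arbitrary, so signs cannot be matched between the arrays. All 7 genes with a value on the first had ratios below 0, as did 47.8% of the 7398 genes there. On AT-EAE array 2, 4 of 6 were above 0 (Cd14, Tlr7, Lilrb4a and Acod1) and 2 below (Clec7a and Fcgr3), and 59% of the 5616 genes there were below 0. Relative to the median of that array (-0.07), Fcgr3 moved to 0.02. Of the 5 genes with values on both AT-EAE arrays, 3 were below 0 on array 1 and above 0 on array 2 (17% of all 5525 such genes), and 2 were below 0 on both (29.9%). The AT-EAE arrays gave median absolute ratios of 0.29 and 0.41 over the measured genes, beside 0.12 and 0.23 over all genes. The control arrays gave 0.13 over 2 genes and 0.11 over 3 genes, beside 0.12 and 0.15. Over single spots the control 1 value was 0.22, beside 0.14 over all spots with 1 gene, so with so few genes its place relative to the array is not settled. Absolute ratios of at least 0.5, a 1.41-fold difference, were found for Lyz2, Cd68 and Fcgr3 on AT-EAE array 1 (3.42% of all genes) and for Cd14 and Lilrb4a on AT-EAE array 2 (15.1%).

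Fcgr3 was the 1 of the 8 with values on all 4 arrays. Among the 5429 genes on the array with such values, the 5 with the nearest pattern were Selenop, Ndufv3, Bsg, Ttc17 and Larp4b. Their Euclidean distances over the 4 arrays were 0.13, 0.14, 0.20, 0.21 and 0.22. Selenop, a secreted selenium carrier, was at 0.16 and -0.07 in the control arrays and at -0.48 and -0.04 in the AT-EAE arrays. The distances are smaller than the standard deviation between spots of a gene on any array (0.24, 0.28, 0.24 and 0.36 in the same order), so their order is not resolved.

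Related genes from fixed lists mostly had values in control cord as well. In all, 54 further genes on 90 spots belonged to the lists of macrophage and microglia markers, pattern receptors and their signalling, Fc receptors and Lilrb relatives, and macrophage activation products. None of them had values on both AT-EAE arrays and neither control array, and 3 had a value on 1 AT-EAE array and on neither control array. These 3 were the C-type lectin genes Clec4d and Clec4a2 and the myeloid receptor gene Cd300lf, against 0.802% of all genes for at least 1 AT-EAE array. Of the 90 spots, the control arrays had values for 67.8% and 50%, the AT-EAE arrays for 64.4% and 45.6%. Lyz1, the neighbor of Lyz2 in the RefSeq gene table, Fcgr2b, Fcgr4 and Lilrb4b had no spot assigned to them alone. Lyz1 is a close copy of Lyz2, Lilrb4b one of Lilrb4a, and Fcgr2b resembles Fcgr3 in its extracellular part. Hybridization of such transcripts to the spots of Lyz2, Lilrb4a and Fcgr3 cannot be told apart from that of the named genes.

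Macrophage and microglia markers had 15 genes on the array, of which 12 and 12 had a value in control and 13 and 11 in AT-EAE. Their median ratio was -0.12 on both AT-EAE arrays, with 11 of 13 genes below the median of the first array and 6 of 11 below that of the second. The largest ratios on the first were those of the phagocyte oxidase gene Cybb at -0.49 and the perforin-like gene Mpeg1 at -0.40. Cybb had 3 spots, of which 1 was measured on each control array, 3 on the first AT-EAE array and 2 on the second. On AT-EAE array 2 the largest were those of the leukocyte tetraspanin gene Cd53 at -0.58 and the macrophage marker Adgre1 at -0.35. Of the 3 Cd53 spots 1 was measured there, and Adgre1 had 1 spot.

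Pattern receptors and their signalling had 26 genes, of which 18 and 13 had a value in control and 15 and 9 in AT-EAE. Their medians were 0.05 and 0.09 on AT-EAE arrays 1 and 2. Clec4a2 was at -0.90 on AT-EAE array 1, and Tlr4, the lipopolysaccharide receptor that works with Cd14, was at 0.29 there and -0.01 on control array 1. On AT-EAE array 2 the lipopolysaccharide-binding protein gene Lbp was at -0.38 and Clec4d at -0.35. Of the 2 Lbp spots 1 was measured there, and Clec4d had 1 spot.

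Of the 8 Fc receptor and Lilrb relatives, 7 and 6 had a value in control and 8 and 6 in AT-EAE, and their medians on the AT-EAE arrays were 0.06 and -0.09. Fcgr1, the high-affinity IgG receptor, was at 0.53 and 0.47 on the control arrays and at 0.48 and 0.60 on the AT-EAE arrays. Its ratio, from 1 spot, had the same sign and a like size on every array, whereas that of Fcgr3 ran from -0.55 to 0.23. Pool numbers are arbitrary and the numerator is not named, so nothing is read from the like signs. Inpp5d, a phosphatase gene that acts below inhibitory receptors, was at 0.23 on control array 1, without a value on the other, and at -0.38 and 0.06 in AT-EAE, so its sign differed between the AT-EAE arrays. Ptpn6, another such phosphatase gene, was at -0.10 and -0.14 in control and at -0.30 and -0.45 in AT-EAE. Of its 2 spots, 1 was measured on control array 2 and 1 on AT-EAE array 2. The 5 activation genes had 4 with a value on every array, and medians of 0.14 and 0.30 on AT-EAE arrays 1 and 2. The cytokine feedback gene Socs3 was at 0.48 and 0.44 there, and at 0.16 and -0.19 on the control arrays. The heme oxygenase gene Hmox1 was at 0.29 and 0.48 in AT-EAE and at -0.02 and -0.70 in control. The last was its largest ratio in size and came from 1 of its 2 spots, while both were measured on the other arrays.

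Markers of other cell types were looked up in the same way. Neuron, oligodendrocyte and astrocyte markers, which define cord tissue, had values for 7 of 7, 4 of 4 and 5 of 5 genes on both control arrays, for 6, 4 and 5 on the first AT-EAE array and for 5, 4 and 4 on the second. Of T cell markers 3 genes were on the array (Cd4, Cd28 and Zap70), and none had a value on any array. Neutrophil markers, of cells that also make lysozyme M, had values for 5 of 6 genes on both control arrays and 3 of 6 in AT-EAE, with AT-EAE medians of -0.08 and -0.57. B and plasma cell markers had values for 4 and 3 of 4 genes in control and 2 and 1 in AT-EAE. Red blood cell markers had them for 4 and 3 of 4 in control and 2 and 2 in AT-EAE. Measured genes were fewer in AT-EAE across the whole set of 10225, at 72.4% and 54.9%, where control cord had 86.2% and 80.1%. Lower counts for a cell type in AT-EAE are therefore not read as a loss of those cells. On AT-EAE array 1, where Lyz2, Cd68 and Fcgr3 had their lowest ratios, meninges and fibroblast markers had a median of -0.29 with 5 of 6 genes below the array median, and oligodendrocyte markers one of -0.19 with 4 of 4 below. Neuron and astrocyte markers had medians of -0.06 and 0.02 there, and B and plasma cell and red blood cell markers 0.05 and -0.02. The part of these other cells in the Lyz2, Cd68 and Fcgr3 ratios was not tested.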

How the data were processed

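Spinal cord RNA was measured on 4 two-channel cDNA arrays, each a single measurement of its pair of pools. The authors deposited 1 value per spot and array, made from normalized green and red signals per the labels and taken here as a log2 ratio, because values were signed with medians near 0. The sources used here do not state background correction, spot filter, software or base. Values were present on 21139, 18565, 15635 and 10788 of 28704 spots on control arrays 1 and 2 and AT-EAE arrays 1 and 2. The number of arrays limits the precision.

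Symbols came from the platform's annotation. They were matched through gene identifiers to GRCm38.p6 for 18267 spots, and updated where they differed, and were kept for 244. The symbols of the 10 spots did not change. Ratios of spots measured for a gene were averaged. No test was run, since members and lists were chosen with earlier results of these data known. Genes named besides the 8 were, per list, the 2 with the largest absolute ratio on each AT-EAE array, those measured in AT-EAE alone, the 5 nearest to Fcgr3, 4 close relatives without a spot of their own, and, outside that rule, every T cell gene on the array. Alternatives were other symbols, spot medians, centred ratios, genes for spots and leaving out arrays. Counting was tested on simulated data. Columns of no sample numbered 0. Python 3.11.15, numpy 2.4.6, pandas 2.3.3 and matplotlib 3.10.9 were used.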

Additional observations from a re-analysis of the deposited data

Results flagged for a closer look

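Fcgr3 had ratios above 0 on both control arrays (0.23 and 0.02) and below 0 on both AT-EAE arrays (-0.55 and -0.06). Its mean was 0.12 in control and -0.30 in AT-EAE, a difference of -0.43. Each ratio is between 2 pools of 1 group, and the numerator is not named. The difference therefore does not compare the level of Fcgr3 in AT-EAE with control, and it was not tested. Of the 5429 genes with values on all 4 arrays, 430 (7.92%) had the same sign within each group and opposite signs between the groups. These 430 include both directions, that of Fcgr3 and its reverse. A difference at least as large was found for 6.65% of the 5429 genes. Pool numbers are arbitrary, and the AT-EAE array 2 value moved to 0.02 relative to the array median, so the opposition of signs ended there.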

How the results depend on the processing

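The share of the 10 spots with a value was higher in AT-EAE by 40 percentage points. It was higher by 50 points when genes replaced spots, and by 63.2 points relative to the 100 spots with the nearest numbers, an alternative chosen after seeing the data. Leaving out 1 array at a time gave 35 to 45 points. Platform symbols as given gave 40, which was fixed in advance because all 10 spots kept their symbols. Presence on these arrays was known when the 8 genes were chosen, so these alternatives do not test the gap. Of the 18 ratios of the 8 genes, 1 changed sign when ratios were centred (Fcgr3 on AT-EAE array 2, from -0.06 to 0.02). The largest move by centring was 0.0736. Centring was the only alternative that could move these ratios. None of the 8 genes had more than 2 spots, so spot medians equal the means. The 5 genes nearest to Fcgr3 could not change by centring, which shifts all genes of an array alike and leaves their distances as they were. Median absolute ratios moved by less than the standard deviation between spots of a gene under both alternatives run for them, though that of control array 1 went from 0.13 to 0.22 with single spots. The restriction to spots with values on all 4 arrays left Fcgr3 alone. Both of its spots had such values, so its ratios could not change. No paired analysis was possible because each value is a ratio within 1 group and no fit across groups was made. Signal over background was not analysed here.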
